A study of Mus musculus with 610 samples.

Results

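Myb and Cpa3, 2 genes known from early blood cell progenitors, were followed through all 610 single cells of 4 populations sorted from the mouse thymus. They are 2 of the 48 genes and gene junctions that were each read in every cell by quantitative PCR, and 47 of these 48 assays gave a signal in at least 1 cell. The members were taken as the assays labelled Myb and Cpa3, and each was described in every cell and in every capture run, the unit that served as replicate. By its title the study dealt with progenitors of Tgd17 cells, gamma delta T cells with interleukin 17 as their product.

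The B6 DN1d population was taken on postnatal days 7 to 10 from C57BL/6J animals and sorted as live, TCRd-, Lin-, CD44+, CD25-, CD24+ and cKit-. Its 3 runs held 72, 70 and 81 cells, 223 in all. Tcrd-/- DN1d cells were sorted with that gate, at days 7 to 10, from B6.129P2-Tcrd tm1Mom mice, which carry a disrupted T cell receptor delta gene in every cell. This group has 86 cells from 1 run. Rag1-/- cKit- cells came from younger B6.129S7-Rag1 tm1Mom mice of postnatal days 0 to 2, which lack a gene needed for receptor rearrangement in every cell. They were sorted as live, TCRd-, Lin-, CD44+, CD25- and cKit- with no CD24 gate. Their runs were 3, with 89, 52 and 82 cells, 223 in all. The B6 DN2 population, taken at days 7 to 10 from C57BL/6J animals, was sorted as live, TCRd-, Lin-, CD44+, CD25+ and cKit+, with 78 cells from 1 run. All 4 gates required CD44 and excluded TCRd and lineage markers, and the DN2 gate alone required cKit and CD25. Each run held cells of 1 group, so that run and group cannot be told apart, and the labels do not say which animals a run came from. No assay analysed here read the sort markers, Rag1 or the constant region of the T cell receptor delta gene. The gates and genotypes were therefore taken from the labels. Rearranged junctions were read, among them Vd4-Jd1 of the delta gene and Vg2-Jg1. Both were found in 0% of cells in the Rag1-/- cKit- runs, against means of 7.29% and 40.97% in B6 DN1d. In Tcrd-/- DN1d they stood at 52.3% and 77.9%, and in B6 DN2 at 1.28% and 0%. The genotypes were not tested with these shares.

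Myb encodes c-Myb, a transcription factor on which haematopoietic progenitors and early T cell precursors depend and which is switched down as many blood lineages mature. Cpa3 encodes carboxypeptidase A3, a protease stored in the granules of mast cells, and its transcript is also known from early haematopoietic and thymic progenitors that do not become mast cells. Both genes are therefore known from progenitors, while Cpa3 is also a mast cell gene.

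Both genes lie on the minus strand in RefSeq annotation of GRCm38.p6, Myb at chr10:21124930-21160984 and Cpa3 at chr3:20215616-20242209. The 250 bases before the start site that RefSeq's promoter windows use are shown because both genes were read as a pair and their start regions differ in composition. The start of the Myb window is base 21160984, the end of the gene's span, whereas that of the Cpa3 window is base 20242181, so that 28 bases of the Cpa3 window lie inside the span given for the gene. Capitals mark matches to 3 sets of letters searched on both strands: the MYB core (CAACTG or TAACTG, and likewise CAACGG or TAACGG), the GATA core (AGATAA or TGATAA) and the TATA box (TATAAA), none of which overlap.
Myb, chr10:21160985-21161234: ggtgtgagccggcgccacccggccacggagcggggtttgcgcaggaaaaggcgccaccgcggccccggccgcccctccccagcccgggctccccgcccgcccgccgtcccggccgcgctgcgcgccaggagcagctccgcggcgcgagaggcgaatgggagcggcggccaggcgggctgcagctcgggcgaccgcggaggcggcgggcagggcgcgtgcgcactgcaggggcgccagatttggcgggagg
Cpa3, chr3:20242182-20242431: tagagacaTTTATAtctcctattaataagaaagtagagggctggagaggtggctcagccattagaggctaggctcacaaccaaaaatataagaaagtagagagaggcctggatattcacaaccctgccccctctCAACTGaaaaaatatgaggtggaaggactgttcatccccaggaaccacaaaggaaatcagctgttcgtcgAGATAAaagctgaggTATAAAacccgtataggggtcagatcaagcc
The Cpa3 stretch held CAACTG from base -116 to -111 before the start, AGATAA from -46 to -41 and TATAAA from -31 to -26, with a further TATAAA on the opposite strand, printed as TTTATA, from -242 to -237. The Myb stretch held none of these letters. It had 81.2% G and C with 40 CpG pairs, above 99.1% of the 32851 mouse promoters of the same length, whereas the Cpa3 stretch had 44.4% G and C with 3 CpG pairs, against a median of 52.4%. Of all these promoters, 23.7% held a MYB core, 16.6% a GATA core and 12.4% a TATA box. A match is a description of letters only.

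Myb and Cpa3 stepped up in the same order of populations: lowest in Rag1-/- cKit- cells, then B6 DN1d, then Tcrd-/- DN1d, and present in every B6 DN2 cell. Detection of a gene meant a threshold cycle (Ct), the PCR cycle at which the signal crosses a threshold, below 24, the value at which undetected reactions stand. Myb was detected in 4 of 89, 4 of 52 and 6 of 82 Rag1-/- cKit- cells by run, which is 6.50% ± 1.75 (SD, n = 3 runs). In B6 DN1d it was detected in 39 of 72, 34 of 70 and 30 of 81 cells, or 46.6% ± 8.73 (SD, n = 3 runs). In the single runs of Tcrd-/- DN1d and B6 DN2 it was detected in 79 of 86 cells (91.9%, exact 95% interval 83.9% to 96.7%) and in 78 of 78 (lower limit 95.4%). The run values of the 4 groups did not overlap. This is not particular to Myb, since those of Smo, Sox13, Etv5 and Cdk6 did not overlap either. How many of the other assays separate in this way was not counted.

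Cpa3 was the rarer of the pair outside DN2. No Rag1-/- cKit- cell of 223 had it, a count of 0 with an approximate limit of 1.35% (exact 95% interval up to 1.64%). In B6 DN1d it was detected in 13 of 72, 13 of 70 and 12 of 81 cells, or 17.1% ± 2.04 (SD, n = 3 runs), a spread smaller than that of Myb in the same runs. In Tcrd-/- DN1d it was detected in 62 of 86 cells (72.1%, interval 61.4% to 81.2%) and in B6 DN2 in 78 of 78. The groups again did not overlap, as with the other assays named for Myb, and with no count over the panel. The exact intervals (Clopper-Pearson) and the limit for a count of 0, taken as 3 cells of the total, cover counting error only. Of the 274 cells with Myb and the 178 with Cpa3 in the whole series, 0 had a Ct between 22 and 24, so that no cell lay close to the detection limit.

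**Figure D1:**
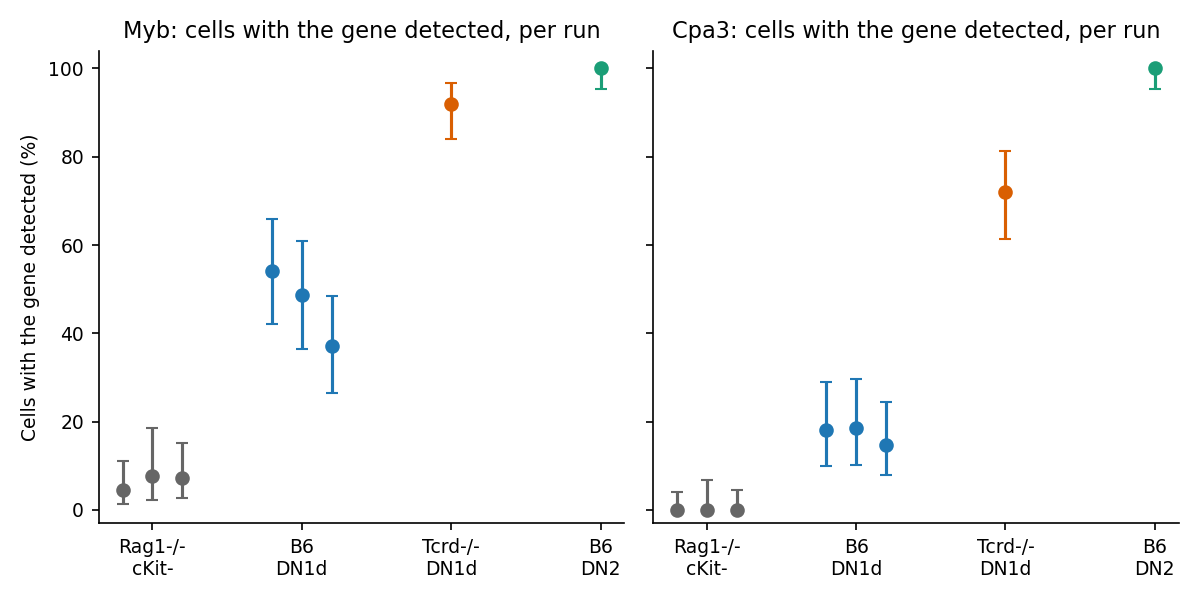
Share of cells with Myb (left) or Cpa3 (right) detected, in percent, for each capture run of the 4 groups; points are runs and bars are exact 95% intervals for the cells of that run. Myb runs in B6 DN1d lie between 37.04% and 54.17%, above all Rag1-/- cKit- runs and below the Tcrd-/- DN1d run at 91.9% and the B6 DN2 run at 100%.

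All 4 differences between neighbouring or paired groups passed the test for both genes. One value per run was fitted with limma, a linear model with variance shared across assays: the logit of the share, the natural log of cells with over cells without the gene with 0.5 added to each. The spread of the groups with 1 run was taken to equal that of the others, and p-values, adjusted by Benjamini-Hochberg over the 47 assays, reflect only how runs vary, which can be technical. B6 DN2 exceeded B6 DN1d by a logit of 6.61 ± 0.478 (SE) for Cpa3 (adjusted p = 5.07e-10) and 5.19 ± 0.493 for Myb (adjusted p = 1.04e-08), where 44.7% of all assays were called higher. Tcrd-/- DN1d exceeded B6 DN1d by 2.49 for Cpa3 (SE 0.478, adjusted p = 0.000255) and 2.50 for Myb (SE 0.493, adjusted p = 0.000278). In that comparison 55.3% of all assays were called higher and none lower, so that the rise of the pair was shared with most of the panel.

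Rag1-/- cKit- cells were below B6 DN1d by a logit difference of -3.43 ± 0.338 (SE) for Cpa3 (adjusted p = 3.97e-08) and -2.46 ± 0.349 for Myb (adjusted p = 4.11e-06), among 25.5% of assays called lower. B6 DN2 stood above Tcrd-/- DN1d by 4.12 for Cpa3 (SE 0.585, adjusted p = 5.34e-06) and 2.70 for Myb (SE 0.604, adjusted p = 0.000664), where 36.2% of assays were called higher. With every cell positive in B6 DN2 and none positive for Cpa3 in Rag1-/- cKit-, the sizes of all logits against B6 DN2, and of the Cpa3 logit for Rag1-/- cKit-, depend on the 0.5 added. The first 3 comparisons share the B6 DN1d runs and are not independent of each other.

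The number of assays that a cell gave moved with the Tcrd-/- difference. Tcrd-/- DN1d cells gave a mean of 30.9 assays each against 19.7 in B6 DN1d, and within B6 DN1d cells with Myb gave 23.3 assays other than Myb against 15.8 in cells without it. With that number as a covariate in each cell, the Myb difference between Tcrd-/- and B6 DN1d was -0.52 (adjusted p = 0.603). Of 40 partner genes tested in B6 DN1d, 17 went with Myb, and these count among the other assays. The covariate thus holds part of the same pattern and cannot set the Myb difference apart from it. Among cells with 20 to 30 other assays detected, Myb was found in 25 of 32, 28 of 32 and 22 of 33 B6 DN1d cells and in 33 of 36 Tcrd-/- cells, a logit difference of 1.01 (adjusted p = 0.297). Cpa3 kept its call in both settings: it was found in 8 of 35, 8 of 33 and 4 of 33 such B6 DN1d cells and in 26 of 34 Tcrd-/- cells, a difference of 2.52 (adjusted p = 0.00399), and of 1.68 with the covariate (adjusted p = 0.0318). The part that the number of assays has in the Myb difference was not tested further.

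In cells that had either gene, its level followed the order of the shares over the groups, with differences that did not pass the test. Level was taken as 24 minus Ct, in PCR cycles, so that 0 is undetected and 1 cycle more is about a doubling of product. In cells with Myb the mean level was 8.28, 9.20 and 8.48 in the Rag1-/- cKit- runs, 10.5, 9.63 and 10.6 in the B6 DN1d runs, 11.5 in Tcrd-/- DN1d and 12.4 in B6 DN2. In cells with Cpa3 it was 7.59, 7.39 and 9.60 in the B6 DN1d runs, 9.57 in Tcrd-/- DN1d and 11.3 in B6 DN2. The third B6 DN1d run thus reached the Tcrd-/- value for Cpa3, while the other runs lay lower, with a mean for the 3 of 8.19 ± 1.22 (SD, n = 3 runs).

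For B6 DN2 against B6 DN1d the difference was 3.10 cycles for Cpa3 (95% interval 0.808 to 5.38, limma adjusted p = 0.0759) and 2.15 for Myb (0.215 to 4.09, adjusted p = 0.0834), with 7.89% of 38 assays called higher. Without the third B6 DN1d run both passed, at 3.80 (adjusted p = 0.000747) and 2.31 cycles (adjusted p = 0.0371). For Tcrd-/- against B6 DN1d it was 1.38 cycles for Cpa3 (-0.913 to 3.66, adjusted p = 0.406) and 1.31 for Myb (-0.633 to 3.24, adjusted p = 0.370), with 2.22% of assays called higher. Myb in Rag1-/- cKit- cells differed from B6 DN1d by -1.59 cycles (-2.96 to -0.217, adjusted p = 0.143), with 2.56% of assays called lower, and the call was gained without the second B6 DN1d run (-1.89, adjusted p = 0.0281) or relative to Gapdh (-2.58, adjusted p = 0.0115). B6 DN2 and Tcrd-/- DN1d differed by 1.72 cycles for Cpa3 (adjusted p = 0.397) and 0.85 for Myb (adjusted p = 0.625), with 2.63% of assays called higher.

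**Figure D2:**
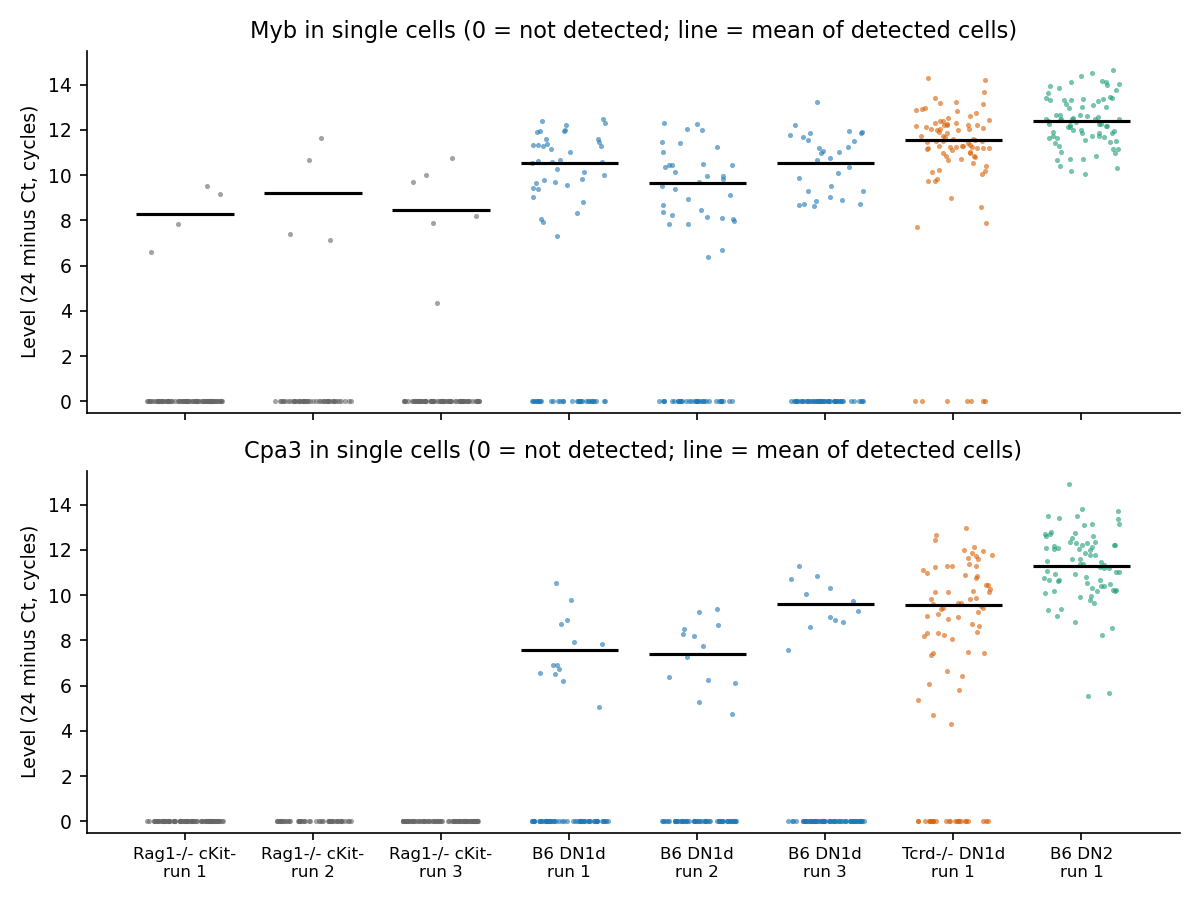
Level of Myb (top) and Cpa3 (bottom) in each cell, as 24 minus Ct in PCR cycles, by run; points are cells, 0 means not detected and the bar is the mean of the detected cells. Cells fall either at 0 or at levels well above it, and both the number of cells above 0 and their mean level are highest in B6 DN2.

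The mean level over all cells, detected or not, joins share and level. For Myb it was 0.372, 0.708 and 0.621 cycles in the Rag1-/- cKit- runs, 5.71, 4.68 and 3.91 in B6 DN1d, 10.6 in Tcrd-/- DN1d and 12.4 in B6 DN2. For Cpa3 it was 1.37, 1.37 and 1.42 in B6 DN1d, 6.90 in Tcrd-/- DN1d and 11.3 in B6 DN2. The near equality of the Cpa3 means over the B6 DN1d runs came from a lower share in the run with the higher level. Together with the Rag1-/- cKit- runs, which all had a Cpa3 mean of 0, it makes the standard errors of Cpa3 small. The p-values for the Cpa3 mean level therefore reflect no run spread of B6 DN2 or Tcrd-/- DN1d. Against B6 DN1d, limma gave 9.90 ± 0.148 (SE) for Cpa3 in B6 DN2 (adjusted p = 7.29e-07), 7.63 ± 0.689 for Myb (adjusted p = 0.000637), 5.51 for Cpa3 in Tcrd-/- DN1d (adjusted p = 1.30e-05) and 5.84 for Myb (adjusted p = 0.00259). The shares of assays called higher were 40.4% and 61.7%. Rag1-/- cKit- cells differed by -1.39 for Cpa3 (adjusted p = 0.000714) and -4.20 for Myb (adjusted p = 0.00210), with 21.3% of assays called lower.

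Between B6 DN2 and Tcrd-/- DN1d the mean level of Cpa3 rose by 4.39 cycles (SE 0.182, adjusted p = 4.51e-05), while that of Myb differed by 1.79 (SE 0.844, 95% interval -0.385 to 3.96, adjusted p = 0.125), with 21.3% of assays called higher. Without the first B6 DN1d run, which enters only through the shared spread, the Myb difference of 1.79 passed (adjusted p = 0.0410). With the median over cells in place of the mean, the Myb calls against B6 DN1d were lost in all 3 groups, since the B6 DN1d medians by run were 8.18, 0 and 0.

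Across the 8 runs the shares of the 2 genes rose almost in step, and more closely with each other than with any of the other assays. The logit share of Cpa3 correlated with that of Myb at Pearson r = 0.995 (Spearman rho = 0.976) over 8 runs, which are 4 groups of cells and share the number of assays per cell. Next most like Myb were Smo, the signal transducer of the hedgehog pathway (r = 0.9796), and Sox13, a transcription factor of Tgd17 development (r = 0.889). Next most like Cpa3 were Smo (r = 0.981) and Spi1, which encodes PU.1, a factor of myeloid cells and of early thymic progenitors (r = 0.888). These values describe populations and say nothing of the same cell.

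Within B6 DN1d the 2 genes were not nested in the same cells. Of the cells with Cpa3, 10 of 13, 7 of 13 and 4 of 12 by run also had Myb, in all 21 of 38 (55.3%, exact 95% interval 38.3% to 71.4%), beside 46.2% of all B6 DN1d cells. Of the cells with Myb, 21 of 103 had Cpa3, or 20.4%, and of those without Myb 17 of 120 had it, or 14.2%. The natural log odds ratio of finding both in 1 cell was 1.13, 0.25 and -0.14 in the 3 runs, with a mean of 0.41 (95% interval -0.70 to 1.52, limma adjusted p = 0.543 over the 40 partner genes of Myb). Partner genes were those detected in 5% to 95% of the cells. Within bins of the number of other assays the mean was 0.01 (adjusted p = 0.991).

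In Tcrd-/- DN1d 59 of 62 cells with Cpa3 also had Myb (95.2%, interval 86.5% to 99.0%), beside 91.9% of all cells, and the log odds ratio of 1.32 differed from that of B6 DN1d by 0.90 ± 1.07 (SE, adjusted p = 0.522). Every B6 DN2 cell had both. Rag1-/- cKit- cells had 14 with Myb and none with Cpa3. The classes of B6 DN1d were thus 21 cells with both genes, 82 with Myb only, 17 with Cpa3 only and 103 with neither.

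**Figure D3:**
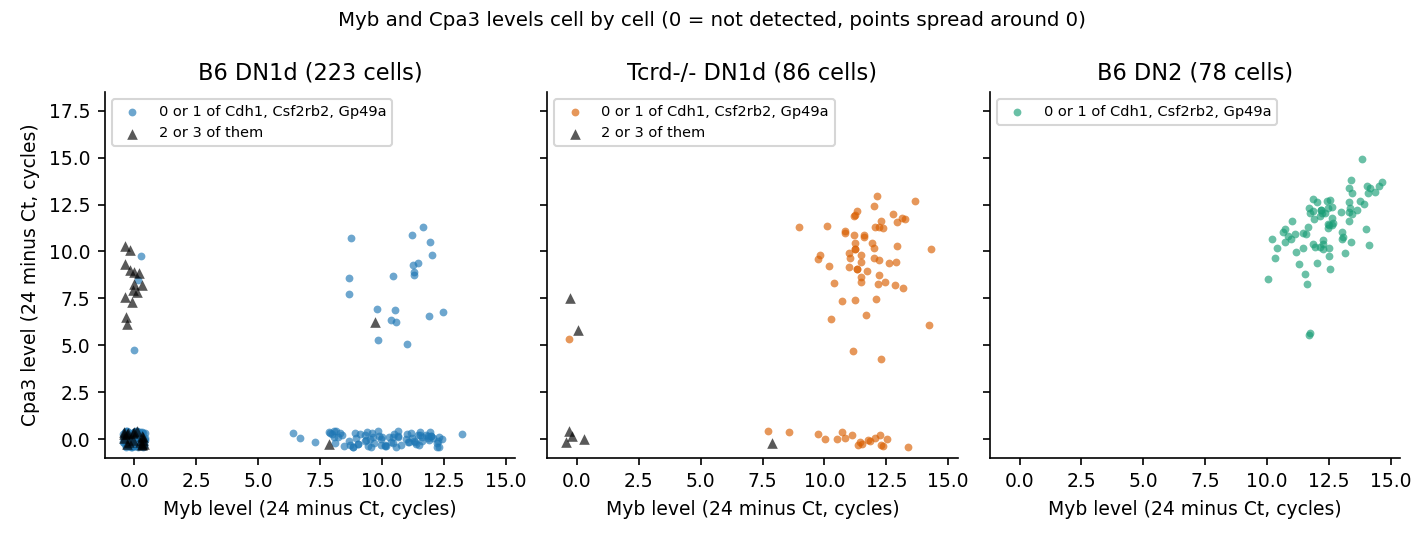
Level of Cpa3 against level of Myb in each cell of B6 DN1d, Tcrd-/- DN1d and B6 DN2, both as 24 minus Ct in PCR cycles, with undetected values spread around 0 for display; black triangles are cells with 2 or 3 of Cdh1, Csf2rb2 and Gp49a detected. Of the 17 B6 DN1d cells with Cpa3 and no Myb, 14 are triangles, against 1 of the 21 cells with both.

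The B6 DN1d cells with Cpa3 held other genes depending on whether they had Myb, given first as counts of cells. All 21 with Myb had Sox13, Maf and Etv5, transcription factors of the Tgd17 programme, 20 had Blk, a Src family kinase of those cells, and 20 had Tcf7 and Tox, factors of early T and innate lymphoid development. Smo was found in 12 of all 38 cells with Cpa3, and so not in all of those with Myb. None of the 17 without Myb had Sox13, Etv5, Blk or Smo, 6 had Maf, 2 had Tcf7 and 1 had Tox. Instead 14 of the 17 had Csf2rb2, a receptor subunit for interleukin 3, and 14 had Gp49a, a receptor of mast and myeloid cells. Cdh1, which encodes E-cadherin, was also found in 14 of the 17. Of the 21 with Myb, 0, 1 and 1 had these. Spi1 was found in 6 of the 17 and in 0 of the 21, and Bhlhe40 in 10 and in 1. Of the other genes listed as myeloid, Csf1r was found in 0 of 223 B6 DN1d cells. Id2 was found in 25 of 38 cells with Cpa3 and in 121 of 185 without. A split by Myb was also present over all B6 DN1d cells, with or without Cpa3. There Sox13 was found in 82 of 103 cells with Myb and 11 of 120 without, and Csf2rb2 in 1 and in 33.

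The level of Cpa3 did not separate the cells with and without Myb. In the cells with Myb its lowest, median and highest levels were 5.08, 8.58 and 11.3 cycles, and in those without Myb 4.74, 8.27 and 10.3. The mean was 7.64, 7.57 and 10.4 by run with Myb and 7.43, 7.19 and 9.22 without. In each run the mean was lower without Myb, by less than the range over cells. The classes differed in how many assays they gave, a mean of 28.4 with both genes, 23.2 with Myb only, 16.2 with Cpa3 only and 15.8 with neither, while the mean Gapdh level was 15.0 with both and 14.6 in each of the other three.

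**Figure D4:**
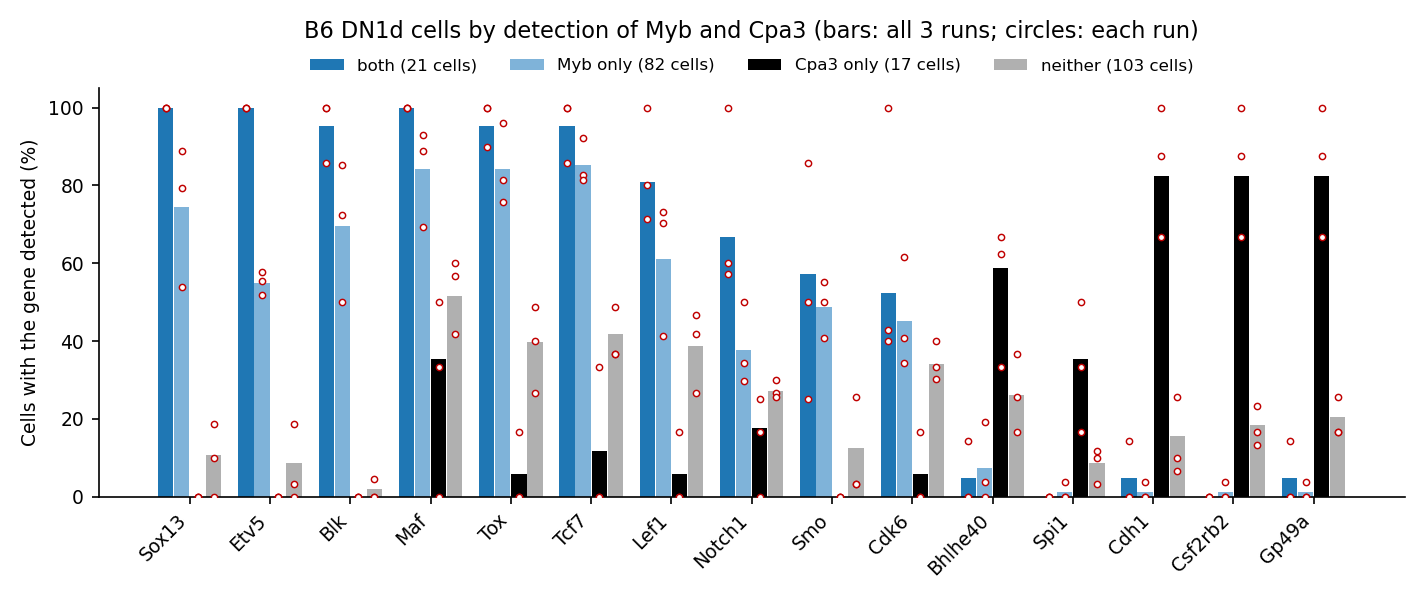
Share of B6 DN1d cells with each of 15 genes detected, in percent, in the 4 classes made by detection of Myb and Cpa3; bars pool the 3 runs and circles are single runs. Sox13, Etv5 and Blk stand near 100% in cells with both genes and at 0% in cells with Cpa3 only, where Cdh1, Csf2rb2 and Gp49a stand at 82.4%.

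Csf2rb2, Gp49a and Cdh1 lay largely in the same cells: of 34 B6 DN1d cells with Csf2rb2, 29 had Gp49a and 27 had Cdh1. At least 2 of these 3 genes were found in 3 of 3, 4 of 6 and 7 of 8 cells with Cpa3 only, in 0 of 10, 1 of 7 and 0 of 4 cells with both, in 1 of 82 with Myb only and in 18 of 103 with neither. Cells with at least 2 of them made up 7 of 72, 10 of 70 and 17 of 81 cells by run. This grouping was chosen after its values were seen and is given with no test. Without those 34 cells, 10 of 10, 6 of 8 and 4 of 5 cells with Cpa3 also had Myb, in all 20 of 23, beside 101 of all 189 cells left with Myb (53.4%), and Cpa3 was detected in 12.2% of the 189. Of the 34 cells left out 14 had Cpa3 only and 18 neither gene, so that leaving them out raises this share by construction.

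Myb went with most tested genes of the Tgd17 programme in B6 DN1d cells and away from the mast and myeloid genes Csf2rb2 and Gp49a. Of the 40 partner genes tested, 17 were found with Myb more often than apart from it (42.5%) and 5 less often (12.5%). Blk was found in 77 of 103 cells with Myb and 2 of 120 without, a log odds ratio of 4.91 ± 0.558 (SE, limma adjusted p = 8.62e-12). Next came Cd163l1, a scavenger receptor of gamma delta T cells, at 4.14, Sox13 at 4.11 (82 of 103 against 11 of 120), Etv5 at 3.56, Il17re, a subunit of an interleukin 17 receptor, at 3.38, the cytotoxic protease gene Gzma at 3.29 and the rearranged Vg2-Jg1 junction at 2.85, all with adjusted p of 9.28e-06 or lower.

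The genes found less often with Myb were Csf2rb2 at -2.87 (1 of 103 against 33 of 120, adjusted p = 9.28e-06), Gp49a at -2.76 (2 against 35, adjusted p = 1.59e-05), Cdh1 at -2.48 (2 against 30, adjusted p = 8.65e-05), Bhlhe40 at -2.03 (adjusted p = 0.00112) and Spi1 at -1.86 (adjusted p = 0.00277). Bhlhe40, a transcriptional repressor, lost its call without the first run (-1.13, adjusted p = 0.254) and Spi1 within bins of the number of assays (-0.70, adjusted p = 0.224). The Tgd17 list was made with earlier results of these data known, so its count is a description. Of its 11 genes that could be tested, 9 went with Myb and 0 against it, while Syk (1.06) and Il7r (-1.22) did not pass. The median log odds ratio was 3.38 against 0.89 over all partners. Of the 9 T lineage genes, Lef1, Tcf12 and Tcf7 went with Myb, a count not set apart from the 42.5% of all partners called with Myb. Of the 3 other multipotent progenitor genes, Cdk6 (0.71) and Runx1 (0.36) did not pass and Spi1 went against it, and of the 4 cell cycle genes none passed, with Mcm2 at 0.45, Dna2 at 0.34 and E2f2 at 0.19.

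Cpa3 in all B6 DN1d cells went with 3 of 40 partners (7.50%), none of them a Tgd17 gene: Cdh1 at 2.00 ± 0.246 (SE, limma adjusted p = 0.0160), Gp49a at 1.59 ± 0.280 (adjusted p = 0.0345) and Csf2rb2 at 1.58 ± 0.290 (adjusted p = 0.0345). Cdh1 was found in 15 of 38 cells with Cpa3 and in 17 of 185 without. The odds ratios were above 0 in each of the 3 runs for all 3 genes. Without the second or the third run 0 of these calls passed, and without the first 5 did. Spi1 at 1.27 (adjusted p = 0.0981) did not pass, nor did Cdk6 (-0.26), Runx1 (0.00), Mcm2 (-0.50), Dna2 (0.46) or E2f2 (0.70).

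Among the 103 cells with Myb, 8 of 39 genes were called as partners of Cpa3 (20.5%), Cdh1 and Gp49a again among them, in a fit where all genes shared 1 standard error. Etv5, at 2.46 ± 0.505 (SE, limma adjusted p = 0.000228), was found in 21 of 21 cells with Cpa3 and in 45 of 82 without. Sox13 at 1.52 (21 of 21 against 61 of 82, adjusted p = 0.0336), Notch1, the receptor that drives T lineage choice, at 1.42 (14 against 31, adjusted p = 0.0379) and Blk at 1.38 (20 against 57, adjusted p = 0.0388) followed. Zbtb16 at 2.25 rested on 3 cells against 1, and Cdh1 and Gp49a at 1.40 each rested on 1 cell against 1 and on the counts added. Without run 1, run 2 or run 3, limma made 2, 3 and 1 calls, and within bins of the number of assays Sox13 stood at -0.054 (adjusted p = 0.954).

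Among the 120 cells without Myb, a fit chosen after the cells with Cpa3 alone were seen, 3 of 39 genes were called (7.69%). These were Cdh1 at 3.23 ± 0.543 (SE, limma adjusted p = 0.00227), Csf2rb2 at 2.87 (adjusted p = 0.00227) and Gp49a at 2.75 (adjusted p = 0.00252), each found in 14 of the 17 cells with Cpa3. Without the first or the third run 0 passed, and without the second 7 did. The difference between both sets of cells, taken within each run, passed for 0 of 39 genes by limma after adjustment, with 14 at an unadjusted p under 0.05. Its values were 2.06 ± 0.777 (SE, adjusted p = 0.0700) for Etv5, 2.47 for Lef1 (adjusted p = 0.0606), -1.88 for Csf2rb2 (adjusted p = 0.0700) and -1.82 for Cdh1 (adjusted p = 0.0766).

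**Figure D5:**
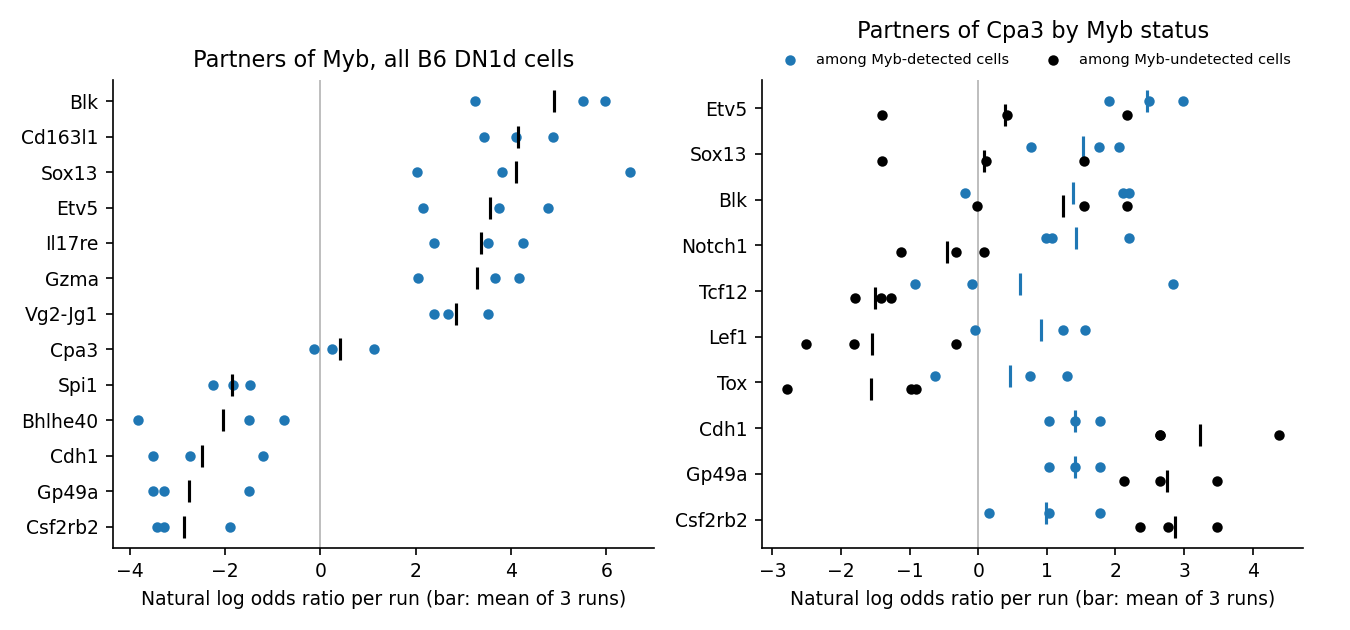
Natural log odds ratio of detection in the same B6 DN1d cell for Myb with its named partners and Cpa3 (left) and for Cpa3 with 10 genes chosen after their values were seen (right), where blue is within cells with Myb and black within cells without Myb; points are runs and short bars are means of 3 runs. Values of genes found in 0 or 1 cells with Cpa3 rest on the 0.5 added to each count. Cpa3 stands near 0 among the partners of Myb, between the genes above 2.85 and those below -1.86.

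Tcrd-/- DN1d cells with Cpa3 almost all had Myb too. Of the 62, 61 had Sox13 and 60 had Etv5, as did 22 of the 24 cells without Cpa3 for each gene, and 2 had each of Cdh1, Csf2rb2 and Gp49a, against 5, 4 and 6 of those 24 cells. The log odds ratios of Cpa3 with Cdh1, Gp49a and Csf2rb2, above 0 in each B6 DN1d run, were -1.92, -2.14 and -1.67 there. The difference from B6 DN1d was called for these 3 of 33 genes (9.09%): -3.93 ± 0.424 (SE, limma adjusted p = 0.0136), -3.73 ± 0.510 (adjusted p = 0.0186) and -3.25 ± 0.535 (adjusted p = 0.0269). None passed without the second or the third B6 DN1d run, and 9 genes did without the first.

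Myb went with Tcf7 and Cdk6 more closely in Tcrd-/- than in B6 DN1d, the 2 genes called of 33 (6.06%). Tcf7 was found in 79 of 79 Tcrd-/- cells with Myb and 0 of 7 without, against 90 of 103 and 45 of 120 in B6 DN1d, a difference in log odds ratio of 5.34 ± 1.07 (SE, limma adjusted p = 0.000153). Cdk6, a cell cycle kinase, was found in 78 of 79 and 1 of 7, against 48 of 103 and 36 of 120, a difference of 4.71 (adjusted p = 0.000654). The Tcrd-/- values rest on 7 cells without Myb, of which 6 had 2 or 3 of Cdh1, Csf2rb2 and Gp49a. Within bins of the number of assays neither passed (2.18 for Tcf7, adjusted p = 0.142).

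Having Cpa3 as well did not go with a measurably higher Myb level. Among B6 DN1d cells with Myb the mean Myb level was 11.3, 10.3 and 10.1 cycles by run with Cpa3 and 10.3, 9.47 and 10.6 without, a difference of 0.41 ± 0.638 (SE, 95% interval -1.15 to 1.97, limma adjusted p = 0.666). It was above 0 in 2 of 3 runs. Of 43 genes only Etv5 differed in level between these cells (2.33%), by 4.91 ± 0.626 cycles over all cells with Myb (adjusted p = 0.00967), a call lost when any 1 of the 3 runs was left out. In cells with both genes, the levels of Myb and Cpa3 correlated in B6 DN2 with Spearman rho = 0.574 (n = 78 cells of 1 run), where Gapdh correlated with Myb at 0.785 and with Cpa3 at 0.529. In Tcrd-/- DN1d rho was 0.083 (n = 59 cells).

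The other genes of the lists moved as follows beside the pair. Of the 3 multipotent progenitor genes other than Myb and Cpa3, all 3 rose in detection in B6 DN2 against B6 DN1d, where 44.7% of all assays were called higher: Cdk6 from 37.5% ± 2.79 to 100%, Runx1 from 66.04% ± 3.25 to 100% and Spi1 from 6.95% ± 4.90 to 80.8% (SD over 3 runs). Cdk6 and Runx1 also rose in Tcrd-/- DN1d, to 91.9% and 98.8%, as did 55.3% of all assays, while Spi1 stood at 3.49% there (adjusted p = 0.447). In Rag1-/- cKit- cells Spi1 fell with the pair to 0.781% ± 0.678, Cdk6 rose to 72.2% ± 11.4 (34% of assays were called higher) and Runx1 was at 68.9% ± 8.08 (adjusted p = 0.744). The mast cell genes Csf2rb2 and Gp49a fell in B6 DN2, to 0% and 1.28%, from 15.0% ± 5.27 and 16.3% ± 5.58 in B6 DN1d, the direction opposite to Cpa3, with 21.3% of assays called lower. In Tcrd-/- DN1d they stood at 6.98% and 9.30%, with adjusted p of 0.235 and 0.377. Of the 4 cell cycle genes, 3 rose in B6 DN2 (Cdk6, Dna2 and Mcm2) against 44.7% of all assays. Cdk6 and Mcm2 rose in Tcrd-/- DN1d, 2 of 4 against 55.3%, and in Rag1-/- cKit-, 2 of 4 against 34%, where Myb and Cpa3 fell. Counts of so few genes are not set apart from these shares. These lists were made with earlier results of the data known and are small.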

How the data were processed

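Per the labels' protocols, capture, lysis, reverse transcription and 18 cycles of preamplification ran on a Fluidigm C1 instrument, before 30 cycles of EvaGreen quantitative PCR. The authors deposited 1 table of threshold cycles (Ct), not normalised, with 48 assays by 610 cells, and 50.5% of the 29280 reactions stood at exactly 24. How Ct was called, who set that ceiling and how doublets or empty capture sites were treated was not given in the sources used here. A doublet caller was not run. Each column matched 1 sample by its title, and the run is a token of that title.

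Level was 24 minus Ct and detected meant a Ct below 24. Each measure had 1 value per run and entered a limma fit (limma 3.58.1, R 4.3.3), 8 runs and 4 group means in 1 fit, which leaves 4 residual degrees of freedom before moderation. Level in detected cells needed 3 such cells in a run. The threshold was an adjusted p of 0.05. Log odds ratios had 0.5 added to each count. Moderation took most of the variance from the whole panel for detection, and all of it, with 1 standard error for every gene, for partners of Myb, for partners of Cpa3 among cells with Myb and for their difference from cells without Myb. The fits of detection and of partners of Myb were tried on simulated cells. These cells had no differences between runs, so the trial does not cover run spread. The other fits were not tried in this way. Measures used Python 3.11.15 with pandas 2.3.3 and numpy 2.4.6. Exact intervals came from scipy 1.17.1, and plots from matplotlib 3.10.9. By rule the partners named were the 8 largest positive and up to 5 negative log odds ratios past the threshold, together with panel genes of the multipotent progenitor, mast cell and cell cycle lists. One more gene fell under this rule; its values are left out of the text but not of the counts. The members and all 9 lists were chosen with earlier results of these data known. The B cell list had 0 genes in the panel, and type 1 effector genes gave Gzma alone with Myb. Of 5 innate lymphoid genes, 4 were tested as partners, and Tox alone went with Myb. Neither count is set apart from the 42.5% of all partners called with Myb. The alternatives were a Ct limit of 22, an arcsine scale, medians, levels relative to Gapdh, 0.25 added, the number of assays as covariate, window or bins, cells with under 10 assays left out, each run left out, and a fit of the compared groups alone.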

Additional observations from a re-analysis of the deposited data

Results flagged for a closer look

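Detection of Cpa3 in the same cell as Cdh1, Csf2rb2 and Gp49a differed between Tcrd-/- DN1d and B6 DN1d, by log odds ratios of -3.93, -3.25 and -3.73. Detection of Myb with Tcf7 and with Cdk6 differed between the same groups by 5.34 and 4.71. These 5 results drew attention because the difference between the genotypes was itself tested by limma and passed. All rest on 1 Tcrd-/- run, with 7 cells without Myb and 24 without Cpa3.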

How the results depend on the processing

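The limits of these data are the 1 run each of Tcrd-/- DN1d and B6 DN2, the 38 B6 DN1d cells with Cpa3 and the 7 Tcrd-/- cells without Myb. No paired analysis was possible because each run holds 1 group and run numbers are names only. In detection, all calls for both genes kept their direction and call in every alternative run except Myb in Tcrd-/- against B6 DN1d, which was -0.52 with the number of other assays as covariate and 1.01 among cells with 20 to 30 other assays; the cause was not tested. With medians over cells, Myb level against B6 DN1d was 9.65 in B6 DN2, 8.76 in Tcrd-/- and -2.73 in Rag1-/- cKit- cells and Cpa3 level in Rag1-/- cKit- cells differed by 0, all without a call; the B6 DN1d medians by run were 8.18, 0 and 0 for Myb and 0 in each run for Cpa3. Relative to Gapdh, Myb level in detected Rag1-/- cKit- cells was called at -2.58. With single runs left out, Myb level in detected cells ranged from 1.85 to 2.31 for B6 DN2 and from -1.89 to -1.40 for Rag1-/- cKit- against B6 DN1d, Cpa3 level in detected cells from 2.70 to 3.80 for B6 DN2, and the Myb level difference of B6 DN2 from Tcrd-/- DN1d stayed at 1.79. The number of partners of Myb was 18 to 25 over all alternatives. That of Cpa3, 3 in all B6 DN1d cells, was 1 without cells of under 10 assays, 9 within bins and 0 to 5 with runs left out. Among cells with Myb it was 8, or 5 with 0.25 added and 1 to 3 with runs left out. Among cells without Myb it was 3, or 6 with 0.25 added, 8 within bins and 0 to 7 with runs left out. The difference between both sets was called for 0 genes, but for 5 with 0.25 added and 1 within bins. The Tcrd-/- difference in partners was called for 2 genes with Myb, 0 within bins, and for 3 with Cpa3, 0 to 9 with runs left out. Sox13 with Cpa3 among cells with Myb turned to -0.054 within bins. Of the other alternatives, 54 for named partners lost their call with the direction kept and 174 changed neither.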
